A study of Mus musculus with 6 samples.

Results

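The voltage-gated calcium channel and HCN channel genes of the mouse auditory nerve were examined in versican-deficient and wildtype animals. They were taken as the rows of the deposited count table whose symbols name a pore-forming calcium channel subunit (Cacna1a to Cacna1i and Cacna1s), an auxiliary subunit (Cacna2d1 to Cacna2d4, Cacnb1 to Cacnb4, Cacng1 to Cacng8) or an HCN channel (the Hcn genes). This gave 30 genes of the 24062 symbols in the table, chosen by name and not by a measured value. RNA was sequenced from auditory nerves dissected from young adult mice, with the nerves from the paired cochleae of each animal pooled into a sample. There were 3 wildtype C57BL/6 animals and 3 Vcan knockout animals labelled with the same strain. The labels name neither the allele nor the cells in which Vcan was deleted.

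A voltage-gated calcium channel is built around a pore-forming alpha1 subunit, which senses voltage and sets the type of current. An extracellular alpha2delta subunit and an intracellular beta subunit bring the channel to the membrane and tune its opening. Most gamma subunits are better known as partners of AMPA-type glutamate receptors than of calcium channels. HCN channels open on hyperpolarization, are tuned by cyclic nucleotides, and carry the inward current that shapes the resting potential and spike timing of spiral ganglion neurons, whose axons form the nerve.

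Gene counts per library ranged from 74530860 to 92513887. Vcan was at 8.43 ± 1.15 CPM (counts relative to library size, scaled between libraries by TMM; SD, n = 3) in wildtype and 3.67 ± 1.54 CPM in knockout nerve, with every knockout library below every wildtype library (edgeR adjusted p = 0.558, unadjusted p = 0.00815). Of the neuron markers 14 of 14 were tested, with none at 0, and they summed to 6294 CPM in wildtype replicate 3 and to between 10540 and 12380 CPM in the other 5 libraries. Hair cell markers (9 of 9 tested) summed to 275 CPM in wildtype replicate 3, 174 CPM in knockout replicate 1 and between 71.9 and 101 CPM elsewhere. In whole tissue, fewer cells of a type and less RNA per cell cannot be told apart.

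No calcium or HCN channel gene was called between the genotypes. Of the 30 genes, 26 passed the filter on low counts, and 0 of the 26 reached an adjusted p under 0.05 (edgeR quasi-likelihood test, Benjamini-Hochberg adjustment over 16722 genes; lowest adjusted p = 0.842), where 0.138% of all tested genes did. DESeq2 also called 0, against 1.25% of genes with a count. Cacna2d1 and Cacng8 were the 2 genes with an unadjusted p under 0.05 in edgeR, beside 5.2% of all genes, and also the 2 in DESeq2, beside 5.88%. Both were lower in knockout nerve, a direction that 2.64% of all genes took at that threshold in edgeR. The same 2 genes were those whose groups did not overlap, beside 10.3% of all genes in either direction and 4.93% lower in knockout. Fold changes were split evenly, 13 above and 13 below 0 (50%, against 48.9% of all genes above 0), with a median log2 fold change of 0.02 beside −0.01 over all genes. For 21 of the 26 the log2 fold change lay within 0.5 of 0. By calcium channel family, the median was 0.02 for 8 tested pore genes, −0.17 for 4 alpha2delta, 0.18 for 4 beta and −0.12 for 6 gamma genes.

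These counts depended on single animals. With wildtype replicate 1, 2 or 3 left out, 1, 1 and 3 channel genes had an unadjusted p under 0.05 (edgeR), beside 4.85%, 4.68% and 7.23% of all genes. With knockout replicate 1, 2 or 3 left out, the numbers were 1, 0 and 1, beside 10.4%, 3.53% and 3.16% of all genes. The median log2 fold change was 0.34 without wildtype replicate 1 and −0.27 without knockout replicate 1. The number of channel genes whose groups did not overlap was 7 without wildtype replicate 1 and 5 without wildtype replicate 3, where 18.4% and 21.3% of all genes did not. It was 5 without knockout replicate 1 (37.0% of all genes), 3 without wildtype replicate 2 (17.4%) and 4 without knockout replicate 3 (13.5%).

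**Figure D1:**
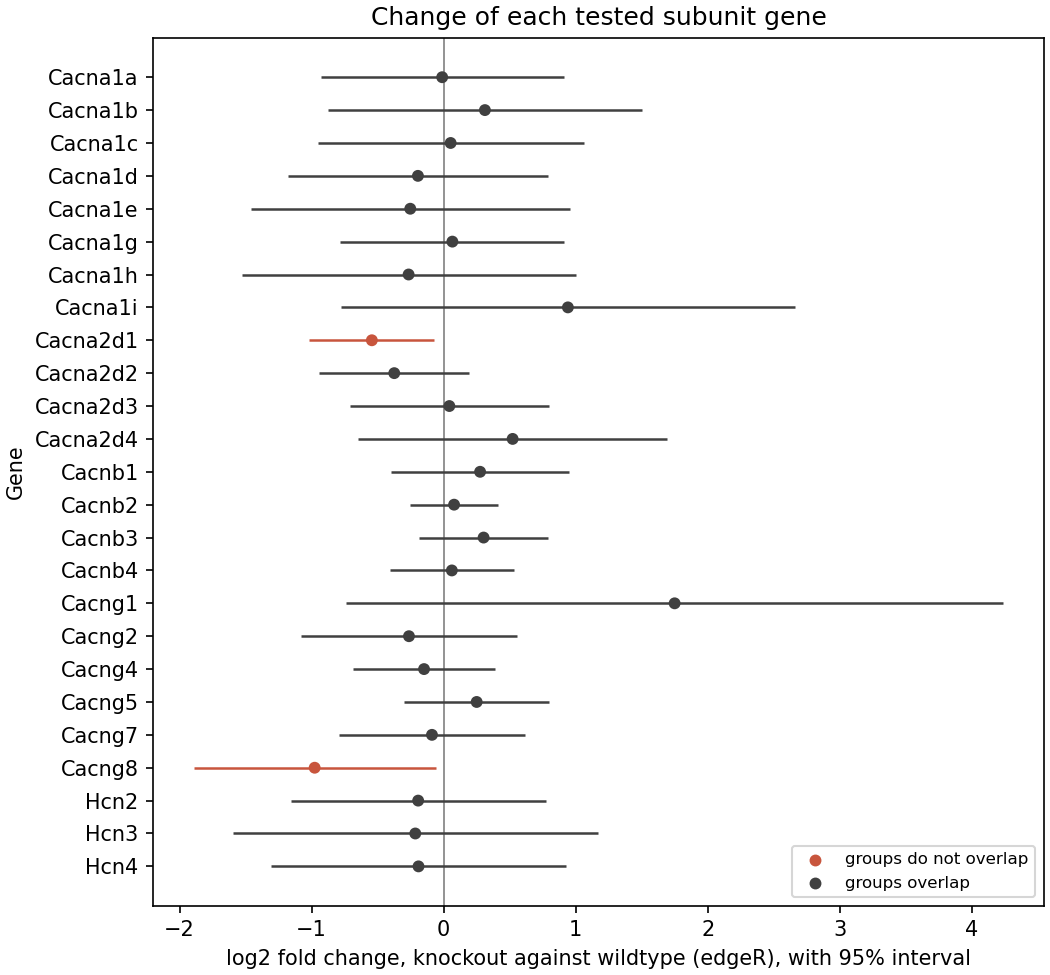
Log2 fold change (x axis, knockout against wildtype, edgeR) of tested channel genes (y axis), with 95% intervals as lines. Only the intervals of Cacna2d1 and Cacng8, drawn in red, lie wholly below 0, and that of Cacng1 is the widest.

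Upstream sequence is shown for the 2 genes whose groups separated and for the most abundant alpha2delta and HCN genes. Each is the 250 bases before a start of the gene in RefSeq (GRCm38.p6), 5′ to 3′ on the strand of the gene. The windows of Cacna2d1 and Cacna2d3 lie inside the RefSeq gene spans given here, which reach farther upstream than the start used, and that of Cacng8 lies inside the gene's span in GENCODE. Each of the 4 windows holds 0 bases of GENCODE exons. Capitals mark the GC box, searched as GGGCGG on both strands, with overlapping matches shown as 1 run. No match to the TATA box (TATAAA), the CCAAT box (CCAAT) or the cyclic AMP response element (TGACGTCA), on both strands, was found in these 4 windows. The windows are chr5:15934441-15934690 for Cacna2d1, chr7:3393792-3394041 for Cacng8, chr14:29721865-29722114 (minus strand) for Cacna2d3 and chr10:79716384-79716633 for Hcn2.
Cacna2d1: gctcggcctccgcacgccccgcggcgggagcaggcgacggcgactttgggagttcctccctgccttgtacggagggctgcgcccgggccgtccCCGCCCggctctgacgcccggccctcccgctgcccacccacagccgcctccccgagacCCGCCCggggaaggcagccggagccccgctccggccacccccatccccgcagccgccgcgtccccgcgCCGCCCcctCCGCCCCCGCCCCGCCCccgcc
Cacng8: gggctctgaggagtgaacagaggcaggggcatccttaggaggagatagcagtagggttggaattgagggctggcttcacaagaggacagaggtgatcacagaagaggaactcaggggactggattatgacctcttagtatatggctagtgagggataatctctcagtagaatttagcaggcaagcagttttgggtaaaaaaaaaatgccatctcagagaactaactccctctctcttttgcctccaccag
Cacna2d3: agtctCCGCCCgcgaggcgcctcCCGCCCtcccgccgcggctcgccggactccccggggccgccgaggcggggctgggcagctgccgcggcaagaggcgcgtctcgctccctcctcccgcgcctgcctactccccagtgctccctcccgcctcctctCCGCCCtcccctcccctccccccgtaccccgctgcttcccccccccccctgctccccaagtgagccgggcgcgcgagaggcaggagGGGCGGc
Hcn2: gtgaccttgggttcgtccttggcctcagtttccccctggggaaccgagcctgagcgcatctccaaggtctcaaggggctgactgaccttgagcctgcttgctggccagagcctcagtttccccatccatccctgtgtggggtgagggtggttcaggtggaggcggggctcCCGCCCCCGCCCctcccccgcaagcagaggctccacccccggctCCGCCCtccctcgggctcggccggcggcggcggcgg
Cacna2d1 held 6 GC boxes at 82.4% G and C, Cacna2d3 held 4 at 80.0% and Hcn2 held 3 at 70.4%, while Cacng8 held 0 at 48.0%. The Cacng8 window lies inside the gene's GENCODE span and outside exons, so it may be intron and not promoter sequence. RefSeq windows were found for 22 of the 30 genes (31 windows). Of these, 16 held a GC box (51.6%), against 32.7% of 32851 windows of all genes, and 1 held a TATA box (3.23%, against 12.4%). The CCAAT box was found in 8 (25.8%, against 33.8%) and the response element in 0 (against 1.55%). The 31 windows, some of them from the same gene, had a median of 62.0% G and C, against 52.4% over all windows. The part of this base content in the shares was not tested. The matches describe letters and are not shown to be bound.

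The alpha2delta genes encode the extracellular subunits, of which Cacna2d1 and Cacna2d2 are bound by gabapentin-type drugs. Cacna2d1 (chromosome 5, 15934264 to 16374511, GRCm38) was at 38.0, 37.0 and 57.9 CPM in wildtype replicates 1, 2 and 3 and at 30.6, 30.7 and 29.8 CPM in knockout replicates 1, 2 and 3. The 3 knockout values lay within 1.03-fold of each other and below all wildtype values. Its log2 fold change was −0.54 (SE 0.20, 95% interval −1.02 to −0.07; edgeR unadjusted p = 0.0299, adjusted p = 0.842). Without wildtype replicate 3, the highest library, it was −0.31 (edgeR adjusted p = 0.587). The unadjusted p exceeded 0.05 with any knockout library left out and was highest, 0.0776, without knockout replicate 3. In the authors' deposited table its log2 fold change was −0.46 with an adjusted p of 0.544 (DESeq2). DESeq2 run here gave −0.55 at nearly the same unadjusted p (0.0243, against 0.0242 as deposited). The deposited fold change is therefore not on the scale of the others given here.

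The sum of the markers of smooth muscle and pericytes (7 of 7 tested) was also highest in wildtype replicate 3. By gene, Myh11, Tagln, Des and Rgs5 were highest there. Acta2 and Kcnj8 were instead highest in knockout replicate 3, and Cnn1 in wildtype replicate 2. The 7 markers summed to 190 to 288 CPM in wildtype and 148 to 196 CPM in knockout libraries. Per 1000 CPM of these markers, Cacna2d1 was at 177, 195 and 201 in wildtype and 156, 208 and 159 in knockout replicates 1, 2 and 3, and on that scale the groups overlapped. Per 1000 CPM of neuron markers it was at 3.07, 3.27 and 9.195 against 2.75, 2.91 and 2.74, with no overlap. This list and the others set beside single genes here were picked after the values were seen, and their part in the differences was not tested.

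Cacna2d3 (chromosome 14, 28904943 to 29722775) was the most abundant of this family per kilobase of exon. Its values were 115, 90.3 and 45.3 CPM in wildtype and 87.5, 85.7 and 85.1 CPM in knockout replicates 1, 2 and 3. The knockout libraries were nearly equal and lay between the wildtype ones (log2 fold change 0.04, 95% interval −0.71 to 0.79). Cacna2d3 made up 66.8%, 66.9% and 41.0% of the summed alpha2delta level per kilobase in wildtype replicates 1, 2 and 3, and 65.4% to 69.3% in knockout. In wildtype replicate 3 the share of Cacna2d1 was 36.8%, beside 15.5% to 19.2% in the other 5 libraries. Cacna2d2 was at 21.5 ± 5.29 and 16.6 ± 3.35 CPM (wildtype and knockout; SD, n = 3), with overlapping groups. Cacna2d4, known from photoreceptors, was low at 1.10 ± 0.12 and 1.59 ± 1.03 CPM, and its highest value, 2.75 CPM, was that of knockout replicate 1.

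**Figure D2:**
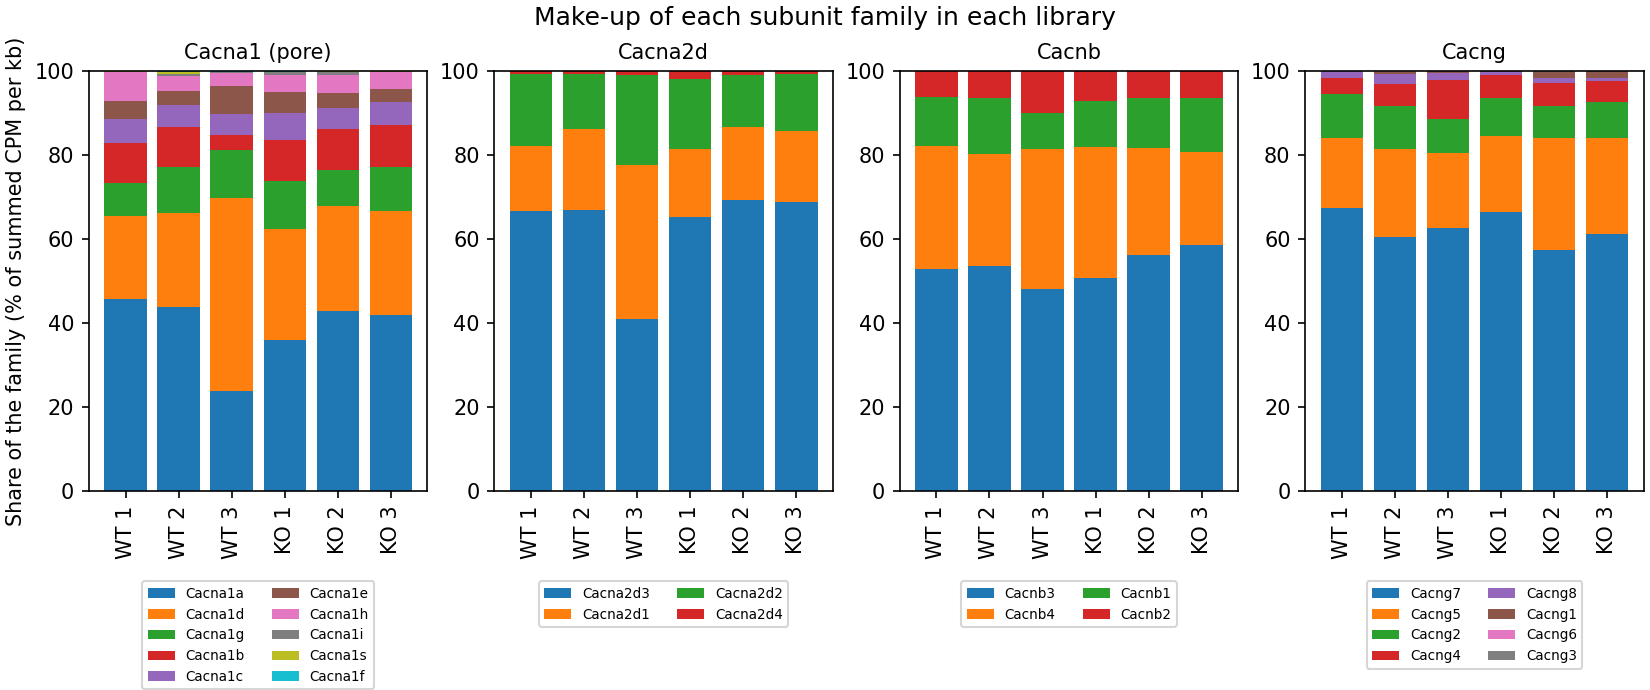
Share of each gene (y axis, percent of the summed CPM per kilobase of exon of its family) in each wildtype (WT) and knockout (KO) library (x axis), 1 panel a family. Wildtype replicate 3 departs from the rest in the Cacna1 and Cacna2d panels, where Cacna1d and Cacna2d1 take 45.8% and 36.8%.

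Among the pore-forming genes the P/Q-type subunit Cacna1a and the L-type subunit Cacna1d had the highest levels. Cacna1a (chromosome 8, 84338631 to 84640251), the principal presynaptic calcium channel of many central synapses, was at 97.3, 53.3 and 36.0 CPM in wildtype and 82.7, 51.6 and 50.8 CPM in knockout replicates 1, 2 and 3. Both genotypes held a high replicate 1, and the groups overlapped (log2 fold change −0.01, SE 0.39). Cacna1d (chromosome 14, 30039941 to 30491156), the L-type channel that drives transmitter release from inner hair cells, was at 46.4, 30.4 and 76.2 CPM in wildtype and 67.1, 33.2 and 33.3 CPM in knockout replicates 1, 2 and 3. Wildtype replicate 3 and knockout replicate 1, its highest libraries, also had the highest hair cell marker sums. Per 1000 CPM of hair cell markers Cacna1d ran from 277 to 461 in wildtype and from 354 to 455 in knockout libraries, and its coefficient of variation over the 6 libraries was 17.8% on that scale and 40.9% in CPM. The outer hair cell motor gene Slc26a5 was at 23.8 CPM in wildtype replicate 3, 13.5 CPM in knockout replicate 1 and 0.466 to 4.81 CPM elsewhere. Slc17a8 alone of the hair cell markers was highest in another library, knockout replicate 3, at 24.4 CPM. It was at 24.0 CPM in wildtype replicate 3 and 19.0 CPM in knockout replicate 1. Whether hair cell RNA carried part of the Cacna1d signal was not tested.

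Per kilobase of exon, Cacna1a was at 5.45 ± 2.77 and 5.41 ± 1.59 CPM per kb (wildtype and knockout; SD, n = 3) and Cacna1d at 4.04 ± 1.84 and 3.53 ± 1.55. Their order was not the same in every library: the level of Cacna1d over that of Cacna1a was 1.92 in wildtype replicate 3 and 0.431 to 0.735 in the other 5. The T-type gene Cacna1g (1.37 ± 0.19 and 1.44 ± 0.74 CPM per kb) and the N-type gene Cacna1b (1.08 ± 0.66 and 1.35 ± 0.51) came next and did not differ from each other beyond their spread. Below them lay the L-type gene Cacna1c (0.773 ± 0.289 and 0.802 ± 0.433), the R-type gene Cacna1e (0.683 ± 0.270 and 0.574 ± 0.375) and the T-type gene Cacna1h (0.684 ± 0.496 and 0.569 ± 0.219), which overlapped as well. With the longest transcript as the length, the wildtype level was 1.24 CPM per kb for Cacna1c and 1.155 for Cacna1e, both above the 1.11 of Cacna1b, and Cacna1b and Cacna1c exchanged places over the 6 libraries. The knockout levels on that length were 1.29, 0.970 and 1.37 in the same order. Without wildtype replicate 1 the wildtype level of Cacna1h was 0.398, and without knockout replicate 1 the knockout level of Cacna1e was 0.357.

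Knockout replicate 1 stood above the other knockout libraries for every one of these 7 genes. For the N-type gene it was at 19.3 CPM, beside 10.2 and 10.6 CPM in knockout replicates 2 and 3. The R-type gene was at 25.4 CPM there, beside 9.48 and 8.55 CPM, and Cacna1g at 23.2 CPM, beside 9.21 and 11.4 CPM. The log2 fold changes of the 8 tested pore genes ran from −0.27 to 0.94 and none reached an unadjusted p under 0.05 (edgeR). The largest, that of the T-type gene Cacna1i, rested on 14 to 104 counts a library (95% interval −0.78 to 2.66).

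The remaining L-type genes were near the limit of detection and were not tested. Cacna1s, the channel of skeletal muscle, had 6, 33 and 1 counts in wildtype and 14, 5 and 3 in knockout replicates 1, 2 and 3. Wildtype replicate 2, the highest, also had the highest sum of skeletal muscle markers (9 of 10 tested), at 37.2 CPM beside 6.89 to 10.04 CPM in the other 5. An opposite-strand gene covers 20.0% of the exon bases of Cacna1s, and no source used here says whether counting used strand. Cacna1f, the photoreceptor L-type channel, had 3 to 8 counts a library.

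The beta genes encode the intracellular subunits that bind the alpha1 linker, and all 4 had fold changes above 0 that did not pass the test. Scaled to the neuron markers, which moved the median log2 fold change of all genes to −0.25, Cacnb2 and Cacnb4 lay below 0 (−0.19 and −0.15). With 1 library left out the lowest values were −0.0039 for Cacnb1, −0.0032 for Cacnb2 and −0.11 for Cacnb4, and Cacnb3 alone stayed above 0 under the 15 alternatives run. Cacnb3 (chromosome 15, 98628436 to 98644536) was the highest per kilobase, at 124, 106 and 73.1 CPM in wildtype and 119, 122 and 133 CPM in knockout replicates 1, 2 and 3. Wildtype replicate 3 was the low library, and the groups overlapped (log2 fold change 0.30, 95% interval −0.18 to 0.79; edgeR unadjusted p = 0.183). Cacnb4 (chromosome 2, 52428320 to 52676609), mutated in the lethargic mouse, was at 152, 118 and 113 CPM in wildtype and 164, 124 and 112 CPM in knockout replicates 1, 2 and 3, again with the first replicate highest in each genotype. An opposite-strand transcript covers 16.0% of its exon bases. Cacnb3 formed 51.6 ± 2.97% and 55.2 ± 4.03% of the beta level per kilobase and Cacnb4 29.7 ± 3.42% and 26.3 ± 4.64% (wildtype and knockout; SD, n = 3). Cacnb1 was at 25.1 ± 9.06 and 30.4 ± 2.20 CPM. Cacnb2 was the steadiest gene of all 26, at 46.2 ± 4.44 and 48.8 ± 4.87 CPM, with 1.32-fold between its lowest and highest library.

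Of the gamma genes, Cacng8 alone separated the groups. It lies on chromosome 7 (3394042 to 3416266) between Cacng7 and Cacng6 and encodes an AMPA receptor auxiliary subunit. Its counts were 124, 138 and 64 in wildtype and 46, 65 and 52 in knockout replicates 1, 2 and 3, or 1.49, 1.54 and 0.749 CPM against 0.606, 0.704 and 0.603 CPM. Wildtype replicate 3 lay just above the highest knockout library. The log2 fold change was −0.98 (SE 0.38, 95% interval −1.89 to −0.06; edgeR unadjusted p = 0.0397, adjusted p = 0.881). With any library but wildtype replicate 3 left out the unadjusted p exceeded 0.05, with a highest value of 0.133 (edgeR). The log2 fold change was −0.62 with an adjusted p of 0.488 (DESeq2) in the authors' deposited table. DESeq2 run here gave −0.98 at nearly the same unadjusted p (0.0206, against 0.0197 as deposited). The deposited value is therefore on another scale and does not show a weaker difference.

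The astrocyte marker sum ranked the libraries in the same order as Cacng8. The markers (6 of 6 tested, none at 0) summed to 814, 1115 and 532 CPM in wildtype and 502, 527 and 318 CPM in knockout replicates 1, 2 and 3. Per 1000 CPM of these markers Cacng8 was at 1.83, 1.38 and 1.41 in wildtype and 1.21, 1.34 and 1.90 in knockout replicates 1, 2 and 3, and the groups overlapped. Per 1000 CPM of neuron markers, in contrast, Cacng8 was at 0.120, 0.136 and 0.119 against 0.0545, 0.0668 and 0.0554, with no overlap. All 6 astrocyte markers and 7 of 7 oligodendrocyte markers had fold changes below 0, where 48.9% of all tested genes lay above 0. Of these markers 0 reached an adjusted p under 0.05 (edgeR), beside 0.138% of all genes. An unadjusted p under 0.05 (edgeR) was reached by 4 and 2, beside 2.64% of all genes lower in knockout. The part of these markers in the Cacng8 difference was not tested. Its share of the gamma level per kilobase was 1.78 ± 0.51% in wildtype and 0.928 ± 0.163% in knockout nerve (SD, n = 3).

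**Figure D3:**
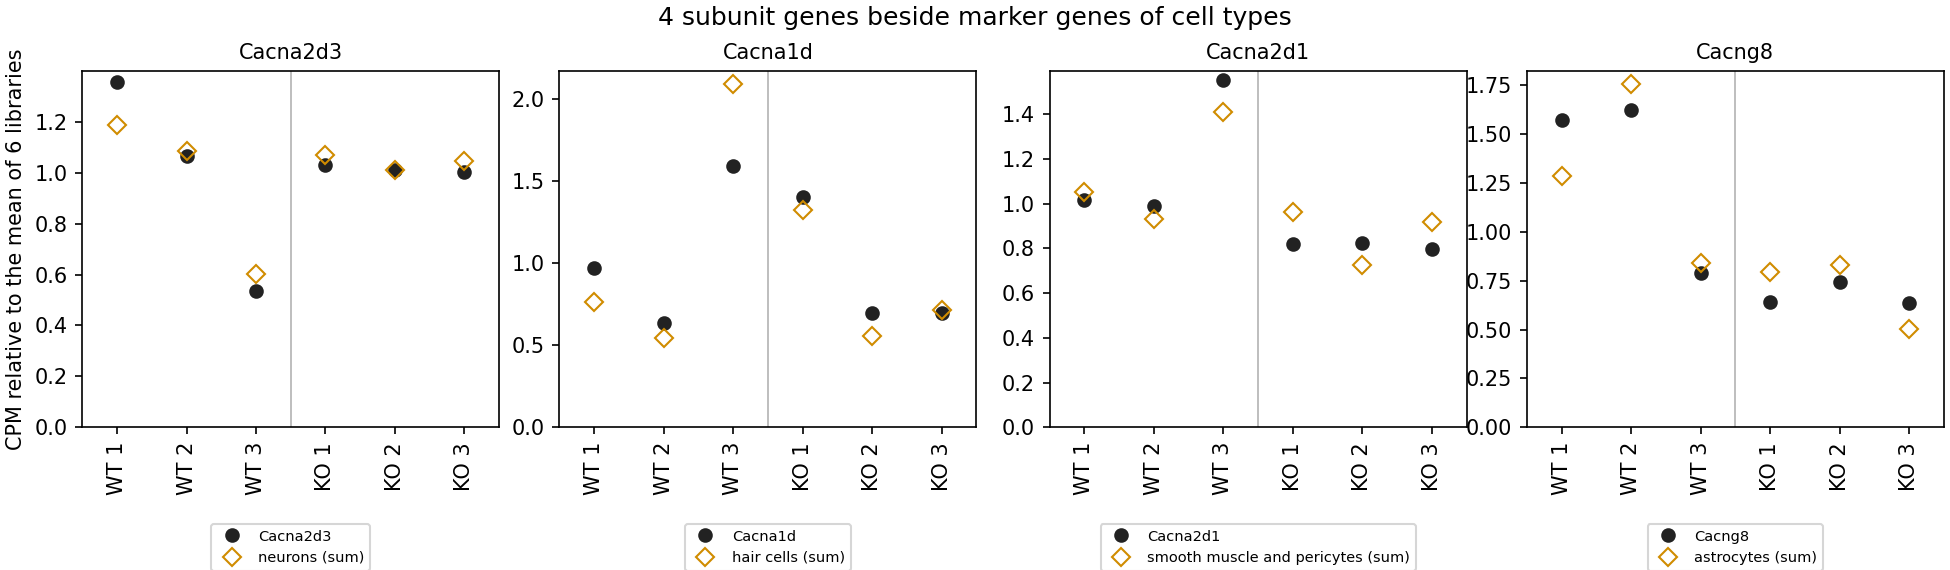
CPM of Cacna2d3, Cacna1d, Cacna2d1 and Cacng8 (filled points) and the summed CPM of a marker list (open diamonds), each divided by its own mean over the 6 libraries (y axis), for each library (x axis). Gene and markers are low together in wildtype replicate 3 for Cacna2d3 and neurons, and high together there for Cacna1d and hair cells.

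Cacng7, a type II AMPA receptor partner, was the main gamma gene and a neighbour of Cacng8 (chromosome 7, 3332027 to 3368221). Values for Cacng7 were 69.4, 40.8 and 33.3 CPM in wildtype and 55.1, 38.7 and 41.1 CPM in knockout replicates 1, 2 and 3, and the groups overlapped (log2 fold change −0.09, 95% interval −0.80 to 0.62). Cacng5, of the same type, was at 26.9, 22.3 and 14.9 CPM and at 23.7, 28.3 and 24.3 CPM in the same order, with wildtype replicate 3 lowest (log2 fold change 0.25, 95% interval −0.30 to 0.80). Neighbouring gamma genes differed widely in level. On chromosome 7 the mean over the 6 libraries was 19.0 CPM per kb for Cacng7, 0.404 for Cacng8 and 0.00875 for Cacng6. On chromosome 11 it was 6.10 CPM per kb for Cacng5, 1.64 for Cacng4 and 0.187 for Cacng1.

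Stargazin (Cacng2) was at 16.6 ± 7.47 and 13.9 ± 2.74 CPM and Cacng4 at 6.17 ± 1.01 and 5.57 ± 0.89 CPM (wildtype and knockout; SD, n = 3), with overlap in each case. Cacng1, the gamma subunit of the skeletal muscle channel, had 1, 16 and 11 counts in wildtype and 4, 49 and 43 in knockout replicates 1, 2 and 3. Knockout replicates 2 and 3 were its highest libraries and replicate 1 was the lowest of each genotype (log2 fold change 1.75, 95% interval −0.74 to 4.24). Skeletal muscle markers did not take that order, with knockout replicates 2 and 3 at 7.94 and 6.89 CPM. Cacng3 (0 to 5 counts a library) and Cacng6 (1 to 4) were not tested.

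Hcn2 was the most abundant of all 30 genes per kilobase. Hcn2 (chromosome 10, 79716634 to 79736108), which responds strongly to cyclic AMP, was at 220, 192 and 67.9 CPM in wildtype and 122, 142 and 156 CPM in knockout replicates 1, 2 and 3. All 3 knockout values lay between the low wildtype replicate 3 and the other wildtype libraries (log2 fold change −0.19, SE 0.41, 95% interval −1.16 to 0.77). The sign of the log2 fold change depended on the animal left out. It was lowest without wildtype replicate 3, at −0.57 (edgeR unadjusted p = 0.00984, adjusted p = 0.429). It was highest without wildtype replicate 1, at 0.10, and was −0.04 without wildtype replicate 2.

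Per kilobase, Hcn2 was at 50.04 ± 25.3 and 43.8 ± 5.28 CPM per kb (wildtype and knockout; SD, n = 3). Hcn4, the slow form known from the cardiac pacemaker, was at 2.77 ± 1.61 and 2.43 ± 1.07 CPM per kb and Hcn3 at 2.11 ± 1.45 and 1.82 ± 0.35, and these did not differ from each other beyond their spread. Hcn3 was at 14.3, 9.54 and 2.40 CPM in the wildtype libraries, a 5.98-fold span. Opposite-strand exons of Pklr cover part of Hcn3 (17.1% of its exon bases), so its counts may include reads of another gene if strand was not used.

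**Figure D4:**
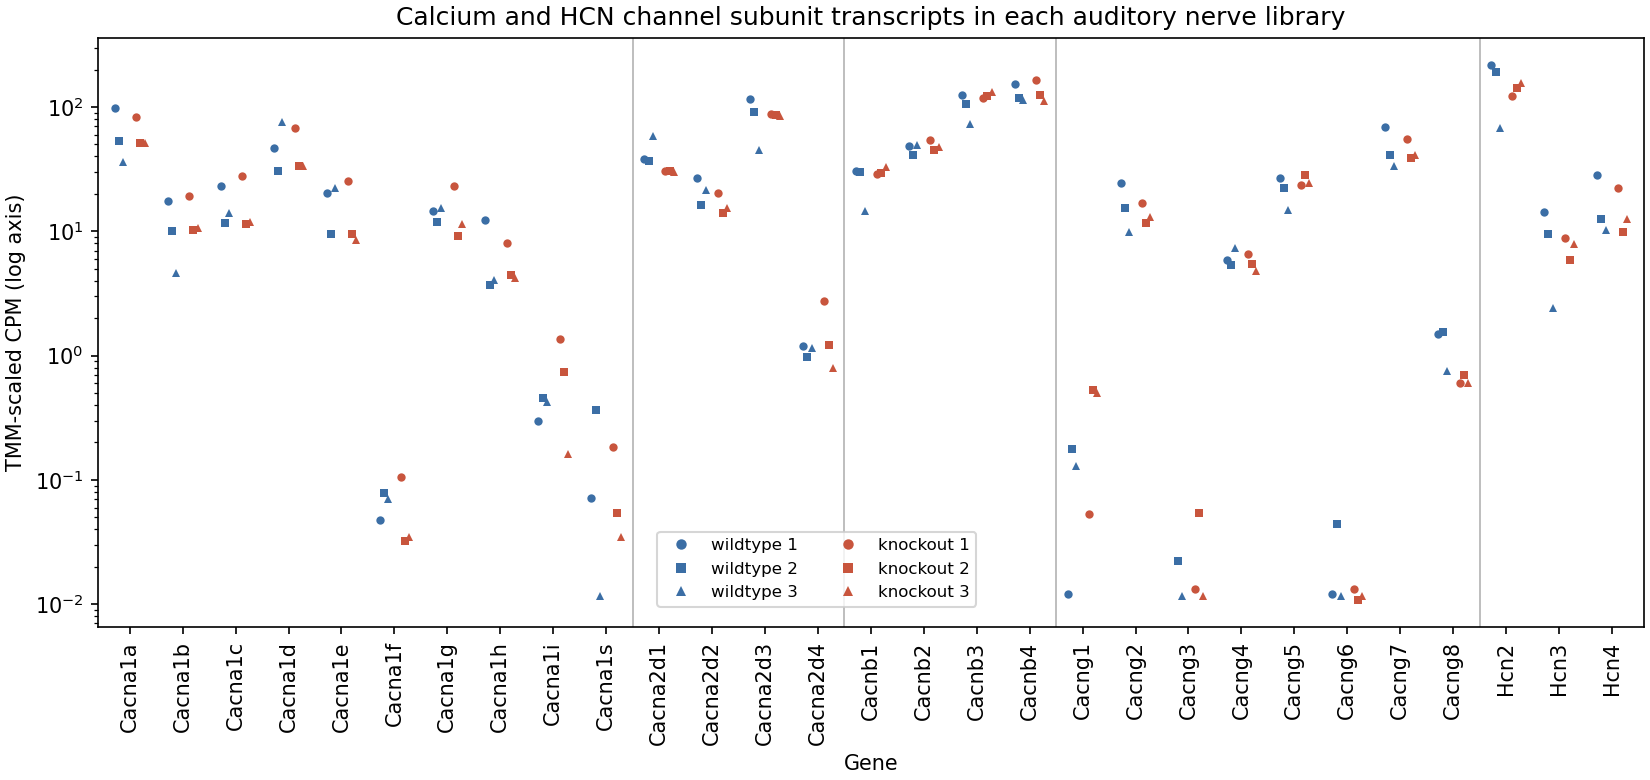
TMM-scaled CPM (y axis, log scale) of the channel genes (x axis) in each library, wildtype in blue and knockout in red, with 1 marker shape per replicate number; the 0 of Cacng3 in wildtype replicate 1 is not drawn. The groups are apart only for Cacna2d1 and Cacng8, and wildtype replicate 3 is the low library for Hcn2 and Hcn3.

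Channel genes varied more between wildtype than between knockout animals. Among the 22 genes with a mean of at least 5 CPM, 17 had the larger coefficient of variation in wildtype, and the medians were 38.4% in wildtype and 19.7% in knockout libraries. Over all 12256 genes of that level the medians were 16.4% and 13.95%, so the wildtype median was the larger there too. How many of all genes had the larger coefficient in wildtype was not counted. Knockout replicates 2 and 3 were the most alike of all library pairs (correlation of log2 CPM 0.993). The difference in spread was not tested, and wildtype replicate 3 is part of the wildtype medians. Of the 26 tested genes, 11 had their lowest value in wildtype replicate 3 (42.3%, against 28.6% of all tested genes). A further 10 had their highest value in wildtype replicate 1 (38.5%, against 13.5%) and 8 in knockout replicate 1 (30.8%, against 19.6%), while 0 were lowest in knockout replicate 1 (against 20.4%).

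**Figure D5:**
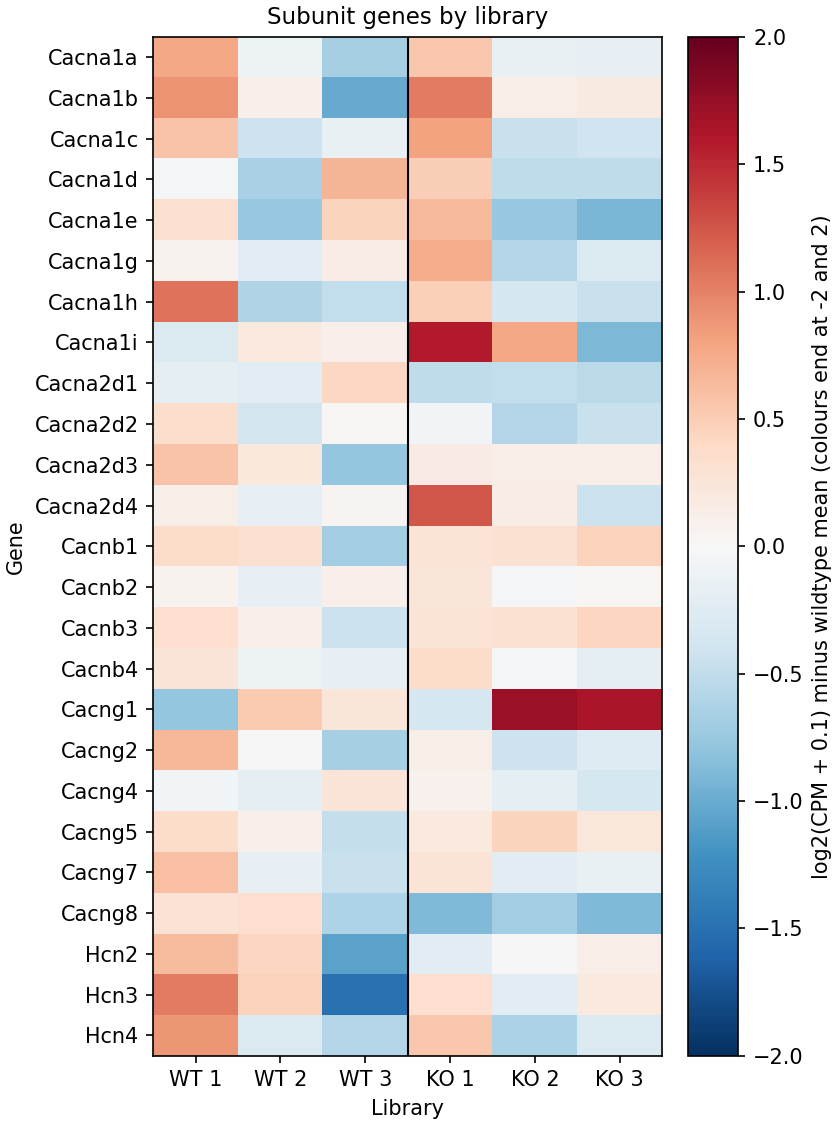
Log2 of CPM plus 0.1, minus the mean of the 3 wildtype libraries, for tested genes (rows) in the 6 libraries (columns), red above and blue below. Wildtype replicate 1 and knockout replicate 1 are red for most pore genes, while wildtype replicate 3 is blue for Hcn2, Hcn3 and Hcn4.

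For some genes this spread ran along with the neuron markers. Divided by their sum, Cacna2d3 was at 9.30, 7.99 and 7.19 per 1000 CPM of markers in wildtype and 7.86, 8.12 and 7.81 in knockout replicates 1, 2 and 3. Wildtype replicate 3 was still the lowest, but closer to the rest. The coefficient of variation of Cacna2d3 over the 6 libraries was 26.5% in CPM and 8.61% as this ratio. It likewise went from 23.7% to 9.13% for Cacnb1, from 18.9% to 9.93% for Cacnb3 and from 20.1% to 10.8% for Cacng5. Other genes went the opposite way, from 9.27% to 32.1% for Cacnb2, from 15.5% to 45.3% for Cacng4 and from 40.9% to 70.6% for Cacna1d. Of the 22 genes with a mean of at least 5 CPM, 14 had a smaller and 8 a larger coefficient as a ratio, and the median coefficient was 31.6% in CPM and 32.9% as a ratio. For Hcn2 the ratio was 17.7, 17.0 and 10.8 in wildtype and 10.97, 13.4 and 14.3 in knockout replicates 1, 2 and 3, so its low value in wildtype replicate 3 was only partly matched by the markers.

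Partners of the channels were read from a list of 44 genes for regulators, release site scaffolds and calcium-gated or leak channels. Of these 43 were tested and 0 passed, at an adjusted p or at an unadjusted p under 0.05 (edgeR), beside 0.138% and 5.2% of all tested genes. The median log2 fold change was 0.11, beside −0.01 over all genes. It was above 0 for 26 genes and below 0 for 17, where 48.9% of all genes lay above 0. In 2 of the 43 the groups did not overlap, both higher in knockout nerve (5.42% of all tested genes took that course), namely Rims2, a release site scaffold that binds calcium channels, and the small GTPase gene Rrad, an inhibitor of calcium channels. Rims2 was at 34.1, 27.7 and 21.1 CPM in wildtype and 46.4, 34.8 and 35.7 CPM in knockout replicates 1, 2 and 3 (log2 fold change 0.50, SE 0.22, unadjusted p = 0.057). Rrad was at 1.60 ± 0.10 and 1.83 ± 0.11 CPM (SD, n = 3; log2 fold change 0.19, edgeR unadjusted p = 0.459). Calmodulin gates calcium feedback on these channels. Of its genes, Calm2 was at 1201 ± 147 and 1287 ± 174 CPM and Calm3 at 986 ± 245 and 1105 ± 102 CPM (wildtype and knockout; SD, n = 3). The HCN trafficking partner Pex5l was at 145, 127 and 92.7 CPM in wildtype and 135, 119 and 123 CPM in knockout replicates 1, 2 and 3. Rims2, Rrad and Pex5l were named after their values were seen.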

How the data were processed

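RNA sequencing of 3 wildtype and 3 Vcan knockout auditory nerve samples was used. The build mm10 and the tools HTSeq and DESeq2 are named per the submitters' processing notes; an aligner, a strand setting and versions are not. The authors deposited raw counts per gene. The same table holds the authors' mean normalised signal, log2 fold change with its standard error, statistic, p-value and adjusted p-value per the file headers, where the statistic is a score; the text draws on these only where it says so. The 5 symbols listed on 2 rows with identical counts were joined, leaving 24062.

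Counts were tested in R 4.3.3 with edgeR 4.0.16 (filterByExpr, 16722 genes; TMM factors 0.964 to 1.02; robust quasi-likelihood F test, 2-sided, Benjamini-Hochberg adjustment, threshold 0.05). A prior check on simulated data used changes larger than that of any tested channel gene and does not speak to smaller ones. Groups came from the titles, with no covariate. The column names carry library numbers that run in a separate block for each genotype. What these numbers stand for is not given, and it cannot be told apart from genotype. Each library is 1 animal. Standard errors are the log2 fold change over the square root of F. Levels per kilobase use the union of GENCODE vM21 exons, which may differ from the authors' gene models. Gene coordinates and upstream windows are from RefSeq (GRCm38.p6, the assembly of mm10). No 2 libraries agreed within sampling noise (lowest chi-square per degree of freedom 39.9).

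Alternatives were other scalings and filters, DESeq2 1.42.0, a fit without robust estimation, a replicate block and each library left out. Genes were named by a rule: values by library for the top 2 of each family per kilobase and any with non-overlapping groups or an unadjusted p under 0.05. Library values of other genes were added after they were seen. Members and lists were chosen with earlier results of these data known. The rule also named items that are not reported here.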

Additional observations from a re-analysis of the deposited data

How the results depend on the processing

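No channel gene was called under any of the 15 alternatives (0 in each, lowest adjusted p = 0.356, without wildtype replicate 3). The number of genes called over the whole table was 23, with 252 in DESeq2 and 3 with the replicate block. It ran from 3 to 14 when 1 library was left out. Channel genes at an unadjusted p under 0.05 numbered 2, with 1 under a filter of at least 1 CPM (which leaves out Cacng8), 1 when scaled to the neuron markers (chosen after seeing the data; 3.10% of all genes) and 0 to 3 with 1 library left out (3.16% to 10.4% of all genes). Channel genes whose groups did not overlap numbered 2, with 1 under that filter and 2 to 7 with 1 library left out, where fewer samples also raise the share over all genes (13.5% to 36.97%, against 10.3%). The median log2 fold change ran from −0.27 to 0.34 with 1 library left out. Cacna2d1 and Cacng8 kept a negative fold change wherever they were tested (−0.89 to −0.31 and −1.25 to −0.81).

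Same-numbered samples did not deviate together in all pairs (correlations of deviations 0.48, 0.32 and −0.16, by the numbers of the titles; the descriptions number the knockout animals differently), so the numbers were not taken as pairing. With the replicate block 3 channel genes (Cacna2d1, Cacna2d2 and Cacng1) had an unadjusted p under 0.05, beside 5.57% of all genes, and the lowest adjusted p was 0.740. Intervals were wide with 3 animals a group, so a 2-fold decrease and a 1.7-fold increase of Hcn2 both lay within its interval.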
